A study of Rattus norvegicus with 6 samples.

Results

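Class I antigen processing was followed here through 9 genes: Psmb8, Psmb9 and Psmb10 (immunoproteasome subunits), Tap1 and Tap2 (peptide transporter), Tapbp (tapasin), Erap1 (trimming aminopeptidase), B2m (light chain) and Nlrc5 (transactivator). The genes were chosen by symbol, with earlier results of these data known, and 9 of 9 were found among the 16849 genes of the count table. All 9 had enough counts to be tested, among 13018 genes tested in all. The cells were RSC96, a rat Schwann cell line of wild type genotype, sequenced as 6 libraries in 3 groups of 2. One group had hypoxia with the piezoelectric material PVDF@PDA. A second group had hypoxia with the non-piezoelectric material PCL@PDA, and the third is labelled Control. The hypoxia model was exposure to medium conditioned by macrophages for 24 h, and the labels do not say whether Control cells received that medium. A difference from Control is therefore one between whole conditions, and the material, the medium and hypoxia cannot be told apart in it. The comparison of the materials with each other addresses the piezoelectric effect, but the materials are also labelled as different substances, and that difference and piezoelectricity cannot be told apart in it. Every library came from this 1 cell line. In the libraries titled PCL@PDA the free-text description gives PVDF@PDA instead, and group membership here follows title and treatment field.

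Class I molecules show fragments of the cell's own proteins at its surface, where cytotoxic T cells read them. The proteasome cuts proteins into peptides, and interferon exchanges its 3 catalytic subunits for Psmb8, Psmb9 and Psmb10, which make the immunoproteasome. Tap1 and Tap2 pair to carry peptides into the endoplasmic reticulum, Erap1 shortens them there, and tapasin helps to load them onto a heavy chain bound to B2m. Nlrc5 is a transactivator of class I genes. Schwann cells, the glia of peripheral nerves, can raise these genes when exposed to inflammatory signals.

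Promoter sequences are given first because interferon-stimulated response elements are known switches of this pathway. Sequences come from RefSeq on the rat build GRCr8, and 7 of the 9 genes were found in that table. Erap1 and Nlrc5 were not matched. Each stretch below runs 5′ to 3′ in the sense of the gene, from 160 bases before to 10 bases after the annotated start. Capitals mark the element, which was searched as GAAA, any 2 bases and GAAA, or its complement where it lies on the other strand. They are shown so that genes with 2 matches, 1 match and no match can be set side by side.
Psmb10: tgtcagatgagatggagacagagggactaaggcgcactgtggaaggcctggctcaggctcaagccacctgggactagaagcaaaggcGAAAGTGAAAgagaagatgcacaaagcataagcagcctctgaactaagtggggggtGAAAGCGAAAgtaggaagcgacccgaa
Tap2: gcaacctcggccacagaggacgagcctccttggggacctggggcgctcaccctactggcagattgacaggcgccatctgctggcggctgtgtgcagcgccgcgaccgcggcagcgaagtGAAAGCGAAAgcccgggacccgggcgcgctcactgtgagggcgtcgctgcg
Tapbp: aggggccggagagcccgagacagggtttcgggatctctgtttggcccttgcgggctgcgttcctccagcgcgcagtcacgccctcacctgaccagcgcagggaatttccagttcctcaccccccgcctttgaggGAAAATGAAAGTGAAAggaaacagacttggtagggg
Tap1: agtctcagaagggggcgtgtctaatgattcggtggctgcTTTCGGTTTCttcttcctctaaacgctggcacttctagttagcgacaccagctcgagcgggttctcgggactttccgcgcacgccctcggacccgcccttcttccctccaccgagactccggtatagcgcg
Psmb8: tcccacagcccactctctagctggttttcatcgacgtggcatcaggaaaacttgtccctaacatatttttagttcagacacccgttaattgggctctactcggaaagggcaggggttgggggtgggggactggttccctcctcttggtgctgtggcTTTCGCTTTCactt
B2m: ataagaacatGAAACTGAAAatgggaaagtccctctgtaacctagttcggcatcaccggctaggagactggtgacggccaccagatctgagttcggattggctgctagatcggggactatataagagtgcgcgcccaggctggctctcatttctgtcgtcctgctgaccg
Psmb9: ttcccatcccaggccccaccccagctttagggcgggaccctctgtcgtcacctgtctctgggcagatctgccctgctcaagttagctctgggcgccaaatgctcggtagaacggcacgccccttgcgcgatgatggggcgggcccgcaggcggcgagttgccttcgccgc
The Psmb10 stretch is chr19:50743283-50743452 on the minus strand. The Tap2 stretch is chr20:4652287-4652456 on the minus strand. The Tapbp stretch is chr20:4967868-4968037 on the minus strand. The Tap1 stretch is chr20:4668534-4668703 on the minus strand. The Psmb8 stretch is chr20:4657022-4657191 on the minus strand. The B2m stretch is chr3:129549170-129549339 on the plus strand. The Psmb9 stretch is chr20:4668840-4669009 on the plus strand. The processing notes name another build, mRatBN7.2, and these positions serve the sequences alone.

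The element, searched on both strands from 250 bases before to 50 after the start, was present in 6 of the 7 promoters. It was present in 3.92% of 33469 rat promoters of that length and in 3.12% of the 12114 that belong to tested genes. Psmb10 held 2 matches, which began 73 and 17 bases before the start. Tapbp held 2 that share 4 bases and began 26 and 20 bases before it. The single match of Tap2 began 41 bases before the start, that of Tap1 121, that of B2m 150 and that of Psmb8 4 bases before it. In the Psmb9 window these letters were not found. The match of Tap1 lies outside that window, between the starts of Tap1 and Psmb9. The NF-kB consensus matched in 3 of 7 windows, against 4.18% of all promoters, as GGGACTTTCC in Tap1, GGGAATTTCC in Tapbp and GGAAAGTCCC in B2m. The gamma-activated site TTCNNNGAA matched in 1 of 7, that of Psmb8, against 8.87% of all promoters. The Y box letters CCAAT matched in 3 of 7, against 37.5%. Tap2, Psmb8, Tap1 and Psmb9 lie side by side in GRCr8, and the windows of Tap1 and Psmb9 face away from each other and share 44 bases. These matches are descriptions of letters in a window and not evidence of binding.

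**Figure D1:**
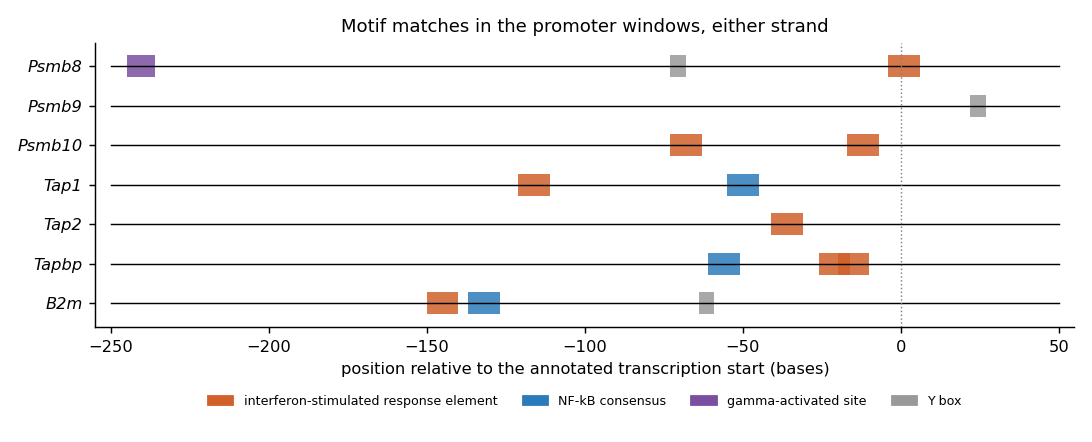
Motif matches on either strand in 7 promoter windows. The x axis is the distance in bases from the annotated start, each line is 1 gene and each coloured block is 1 match. The element of interferon-stimulated genes is drawn in 6 of the 7 lines and the Psmb9 line has none.

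Libraries held 32760123 to 35389307 counts, and 3 counts corresponded to 0.0861 to 0.0911 CPM, the usual unit of counts scaled to library size. Levels below are CPM with library sizes adjusted by the trimmed mean of M values (TMM), unless values scaled per gene length (FPKM) are named. In a principal component analysis, both Control libraries separated from the 4 material libraries along component 1 (42.3% of the variance). Component 2 (19.5%) separated the PCL@PDA pair, with replicate 3 at -18.3 and replicate 1 at 2.31, and values without PCL@PDA replicate 3 are given for the named genes whose call it changed. Of 12 Schwann cell markers, 6 were under 1 CPM in every library, including the defining S100b, Ngfr and Gfap, while Vim and Pmp22 were well detected. Of the detected Schwann cell markers, Erbb3, a neuregulin receptor, was at 10.2 to 12.0 CPM with the materials and at 17.8 and 17.5 in Control (log2 fold changes of -0.72 and -0.61, adjusted p = 0.000131 and 0.000849). Pmp22, a myelin protein gene, was higher with both materials (0.28 and 0.27, adjusted p = 0.0127 and 0.0156). Macrophage and leukocyte markers (10 of 12 in the table) summed to 7.50 to 9.08 CPM with the materials and to 7.77 and 8.21 in Control. The largest part was Cd14, lower with both materials (-0.27 and -0.37, adjusted p = 0.445 and 0.237). Coro1a (1.07 and 1.03, adjusted p = 0.0847 and 0.0852), Cd68 (2.43 and 1.69, 0.0688 and 0.235) and Lyz2 (0.95 and 1.14, 0.382 and 0.252) were higher. Csf1r was higher too and Cd53 lower, and no tested marker of this list passed. The similar sums thus do not show equal leukocyte signal. Ptprc, the pan-leukocyte marker, had 0 counts in all but 1 library, which had 1. Fibroblast markers (3 of 4 in the table) summed to 47.4 to 53.6 CPM with the materials and to 33.0 and 30.9 in Control. That sum rests on Col1a1 and Pdgfra, since Dcn had 0 counts in all but 1 library, which had 1. Col1a1, Pdgfra, Erbb3 and Pmp22 thus moved with the same groups as the genes below, and their part in those differences was not tested. In bulk RNA fewer cells of a type and less RNA per cell cannot be told apart.

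The genes of class I processing were, for the most part, lower with both materials than in Control. With PVDF@PDA, 6 of the 9 fell (Psmb8, Psmb10, Tap1, Tap2, Tapbp and Erap1) and 0 rose. With PCL@PDA, 5 of the 9 fell (Psmb8, Psmb10, Tap1, Tapbp and Erap1) and 0 rose. B2m, Nlrc5 and Psmb9 did not pass the test in either comparison. A gene was called when the adjusted p of edgeR's quasi-likelihood test was below 0.05 over all genes tested. Of all tested genes, 15.7% were called with PVDF@PDA, 8.9% lower and 6.79% higher. With PCL@PDA 20.1% were called, 11.3% lower and 8.77% higher. With scaling by library totals alone, the split of all calls turned from 1158 lower and 884 higher to 879 and 1164 for PVDF@PDA, and from 1474 and 1142 to 1070 and 1482 for PCL@PDA. The 6 and 5 genes counted here as lower were 6 and 5 under that scaling too. The median log2 fold change of the 9 genes was -0.37 with PVDF@PDA and -0.31 with PCL@PDA, against 0.0057 and 0.0089 over all genes tested. Both comparisons use the same Control libraries, so the 5 genes that fell in both are not independent counts. Of all genes tested, 6.99% were called lower in both. The 9 genes were chosen with earlier results of these data known, so the shares of all genes are a description and no test.

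In 7 of the 9 genes all 4 material libraries were below both Control libraries, an order found in 20.3% of all genes tested. The groups did not overlap, with the material lower, for 7 genes with PVDF@PDA (29.2% of all genes tested) and for 8 with PCL@PDA (27.8%). The material was higher without overlap for 1 gene, B2m, with PVDF@PDA (29.3% of all genes tested) and for 0 with PCL@PDA (28.3%).

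**Figure D2:**
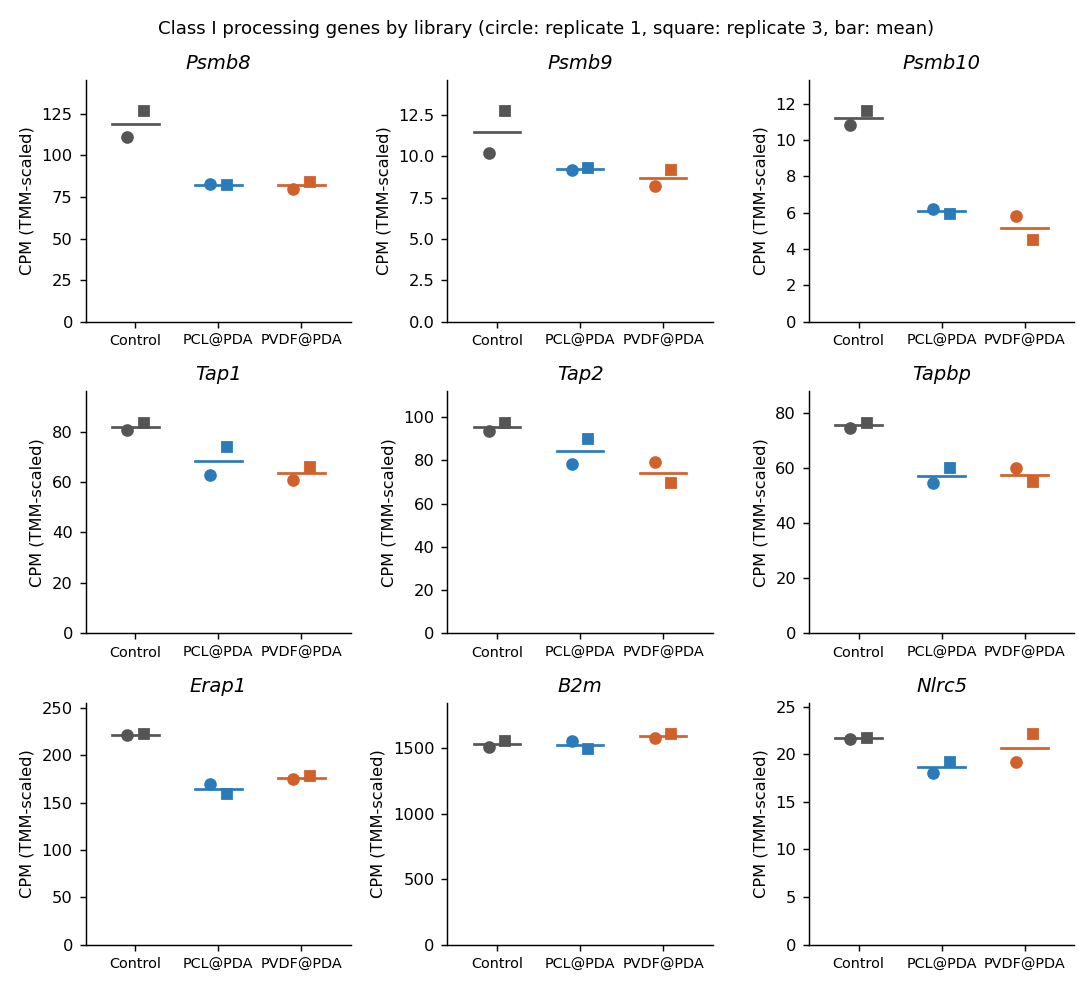
TMM-scaled CPM of each of the 9 genes by library. Circles are replicate 1, squares replicate 3 and bars group means, and each y axis starts at 0. Psmb8, Psmb9, Psmb10, Tap1, Tap2, Tapbp and Erap1 are lower in each material library than in both Control libraries, while B2m and Nlrc5 are not.

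Among the immunoproteasome subunits, Psmb8 (the chymotrypsin-like subunit, gene ID 24968) was the most abundant. It stood at 80.0 and 83.9 CPM with PVDF@PDA, at 82.8 and 82.0 with PCL@PDA and at 111 and 126 in Control. The 4 material libraries lay within a narrow range, and the lowest Control library was well above them. The log2 fold change was -0.54 ± 0.07 (SE, n = 2 per group, adjusted p = 1.61e-08, edgeR's quasi-likelihood test) with PVDF@PDA and -0.53 ± 0.07 (adjusted p = 1.58e-08) with PCL@PDA.

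Psmb10 (gene ID 291983), the trypsin-like subunit, showed the largest fall of the 9 genes. It was at 5.83 and 4.50 CPM with PVDF@PDA, at 6.22 and 5.93 with PCL@PDA and at 10.8 and 11.6 in Control. Both Control libraries were far above every material library. The log2 fold change was -1.12 ± 0.19 (SE, n = 2, adjusted p = 8.41e-06) with PVDF@PDA and -0.88 ± 0.18 (adjusted p = 0.000243) with PCL@PDA.

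Psmb9 (gene ID 24967), the subunit that replaces Psmb6, was at 8.17 and 9.17 CPM with PVDF@PDA, at 9.17 and 9.28 with PCL@PDA and at 10.2 and 12.7 in Control. Every material library was below both Control libraries, but the Control libraries were far apart. The log2 difference was -0.40 ± 0.16 (SE, n = 2, adjusted p = 0.0843) with PVDF@PDA and -0.31 ± 0.16 (adjusted p = 0.18) with PCL@PDA, so neither passed. Without Control replicate 3 the differences were -0.24 and -0.15 (adjusted p = 0.563 and 0.734). The 95% interval ran from -0.73 to -0.08 with PVDF@PDA, and a fall as large as that of Psmb8 lies inside it.

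The level of each induced subunit was set beside that of the subunit it replaces, as a ratio of FPKM values, which are scaled per gene length. Psmb8 stood at 135.5% and 136.7% of Psmb5 in Control. With PVDF@PDA it was at 92.95% and 88.05%, and with PCL@PDA at 99.24% and 76.6%. Psmb8 was thus the more abundant of this pair in Control and the less abundant one in the 4 material libraries. Psmb10 stood at 7.961% and 8.177% of Psmb7 in Control, at 4.906% and 3.866% with PVDF@PDA and at 5.087% and 4.989% with PCL@PDA. Psmb9 stood at 9.398% and 11.93% of Psmb6 in Control, at 9.018% and 9.138% with PVDF@PDA and at 9.299% and 9.519% with PCL@PDA. For Psmb9 the lower Control library was inside the range of the material libraries. These ratios are descriptions with no test, since both genes of each pair are tested on their own.

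**Figure D3:**
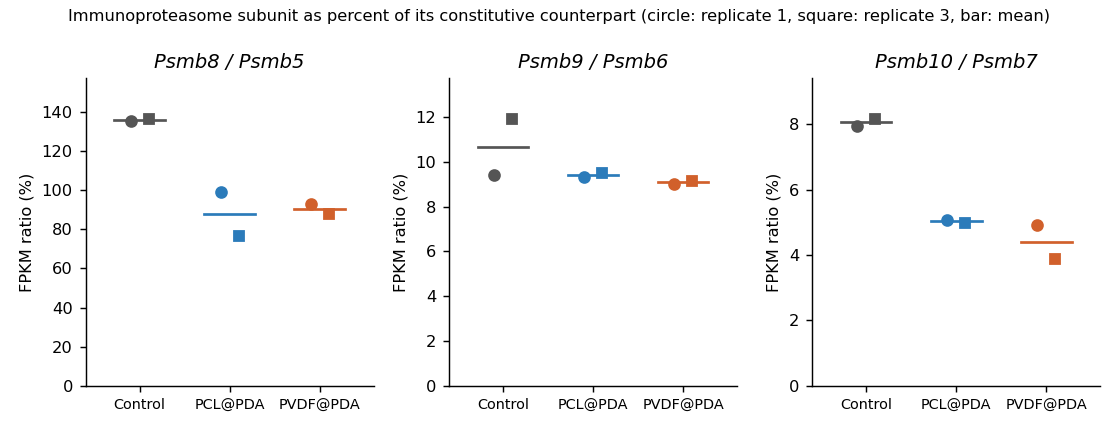
FPKM of each induced subunit as a percent of the constitutive subunit it replaces, by library, with circles for replicate 1, squares for replicate 3 and bars for group means. Psmb8 exceeds Psmb5 in both Control libraries (135.5% and 136.7%) and in no material library, and the Psmb9 to Psmb6 ratio overlaps between Control and PCL@PDA.

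As a background for the counts that follow, 8.9% of all genes tested were called lower with PVDF@PDA and 11.3% with PCL@PDA. Of the 3 constitutive subunits that the induced ones replace, 1 passed, Psmb7. It was called lower, by a log2 fold change of -0.24 (adjusted p = 0.00327) with PVDF@PDA and -0.20 (adjusted p = 0.0108) with PCL@PDA. Those calls were lost without PVDF@PDA replicate 3 (adjusted p = 0.069) or Control replicate 3 (0.0749) in the first case and without Control replicate 3 (0.138) in the second. Psmb6 was at -0.17 and -0.13 (adjusted p = 0.0791 and 0.177) and Psmb5 at 0.05 and 0.13 (adjusted p = 0.752 and 0.374), so neither passed. The PVDF@PDA difference of Psmb6 passed with the replicate block (adjusted p = 0.0468), with only the 4 libraries compared (0.0241) and without PCL@PDA replicate 1 (0.0234) or replicate 3 (0.0214). Psmb5 was at 0.29 with PCL@PDA and passed (adjusted p = 0.00114) without PCL@PDA replicate 1. Whether the induced and constitutive subunits differed in their response was not tested. Of 5 activators and assembly factors, which cap the proteasome core or help to build it, 1 fell with PVDF@PDA and 0 with PCL@PDA. That gene was Psme2, a subunit of the PA28 cap, at -0.24 (adjusted p = 0.00334), and the call was lost without PVDF@PDA replicate 1 (0.192) or Control replicate 3 (0.138). Its relative Psme3 was at -0.07 and -0.12 (adjusted p = 0.442 and 0.138) and the activator Psme4 at -0.08 and -0.14 (0.419 and 0.107). With PCL@PDA Psme2 was at -0.15 and not called, but it passed with the replicate block (adjusted p = 0.022) and without the filter on low counts (0.0493). Without PCL@PDA replicate 1, Psme2, Psme3 and Psme4 were at -0.15, -0.15 and -0.19 with PCL@PDA.

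Tap1 (gene ID 24811), a subunit of the peptide transporter, was at 61.0 and 66.0 CPM with PVDF@PDA, at 62.9 and 73.9 with PCL@PDA and at 80.5 and 83.5 in Control. The higher PCL@PDA value belongs to replicate 3, the library that stands apart, and it was still below both Control libraries. The log2 fold change was -0.37 ± 0.07 (SE, n = 2, adjusted p = 0.000249) with PVDF@PDA and -0.26 ± 0.07 (adjusted p = 0.0081) with PCL@PDA. The PCL@PDA call was lost without PCL@PDA replicate 1 (-0.15, adjusted p = 0.143) and without Control replicate 3 (-0.24, adjusted p = 0.0755).

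Tap2 (gene ID 24812), its partner, was at 79.1 and 69.7 CPM with PVDF@PDA, at 78.5 and 89.9 with PCL@PDA and at 93.8 and 97.4 in Control. PCL@PDA replicate 3 again lay nearest to Control. The log2 fold change was -0.36 ± 0.07 (SE, n = 2, adjusted p = 0.000165) with PVDF@PDA. With PCL@PDA it was -0.18 ± 0.07 and did not pass (adjusted p = 0.0582). Without PCL@PDA replicate 3 it was -0.29 and passed (adjusted p = 0.00187). Without PCL@PDA replicate 1 it was -0.09 (adjusted p = 0.404). It passed with the replicate block (adjusted p = 0.0225) and without the filter on low counts (0.0415). In limma on log2(FPKM + 1), Tap1 and Tap2 did not pass with PVDF@PDA (adjusted p = 0.0735 and 0.0728), nor did Tap1 with PCL@PDA (0.161).

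The transporter needs both subunits, and their FPKM ratio was 0.777 in each Control library. It ranged from 0.6995 to 0.8588 in the PVDF@PDA libraries and was 0.7259 and 0.7453 with PCL@PDA. The PVDF@PDA libraries lay on either side of the Control value.

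Tapbp (gene ID 25217), whose product tapasin bridges the transporter and the class I heavy chain, was at 59.9 and 54.98 CPM with PVDF@PDA, at 54.3 and 60.0 with PCL@PDA and at 74.4 and 76.3 in Control. The materials covered the same range, below Control. The log2 fold change was -0.39 ± 0.08 (SE, n = 2, adjusted p = 9.78e-05) with PVDF@PDA and -0.40 ± 0.08 (adjusted p = 6.27e-05) with PCL@PDA. Erap1 (gene ID 80897) was at 175 and 178 CPM with PVDF@PDA, at 169 and 159 with PCL@PDA and at 221 and 222 in Control. The Control pair agreed closely and was above each material library. The log2 fold change was -0.33 ± 0.06 (SE, n = 2, adjusted p = 1.77e-05) with PVDF@PDA and -0.43 ± 0.06 (adjusted p = 4.52e-08) with PCL@PDA.

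B2m (gene ID 24223), the light chain shared by class I molecules, was at 1577 and 1607 CPM with PVDF@PDA, at 1556 and 1498 with PCL@PDA and at 1514 and 1559 in Control. The PCL@PDA and Control libraries overlapped. The log2 difference was 0.05 ± 0.05 (SE, n = 2, adjusted p = 0.522) with PVDF@PDA and -0.01 ± 0.05 (adjusted p = 0.927) with PCL@PDA. Its 95% intervals ran from -0.04 to 0.15 and from -0.10 to 0.09, and a fall of the size seen in Erap1 lies outside both. The sign with PCL@PDA changed with the scaling and is not reported as a direction. Nlrc5 (gene ID 291861) was at 19.2 and 22.1 CPM with PVDF@PDA, at 18.02 and 19.2 with PCL@PDA and at 21.6 and 21.7 in Control. One PVDF@PDA library was above both Control libraries and the other was below them. The log2 difference was -0.07 ± 0.12 (SE, n = 2, adjusted p = 0.746) with PVDF@PDA and -0.22 ± 0.12 (adjusted p = 0.195) with PCL@PDA. The interval with PCL@PDA, from -0.45 to 0.01, includes falls as large as those of Tap1 and Tapbp. In the GRCr8 annotation Nlrc5 overlaps 2 other loci, LOC108348891 and LOC134483688, and the counting strand is not given, so reads of these genes could be mixed.

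**Figure D4:**
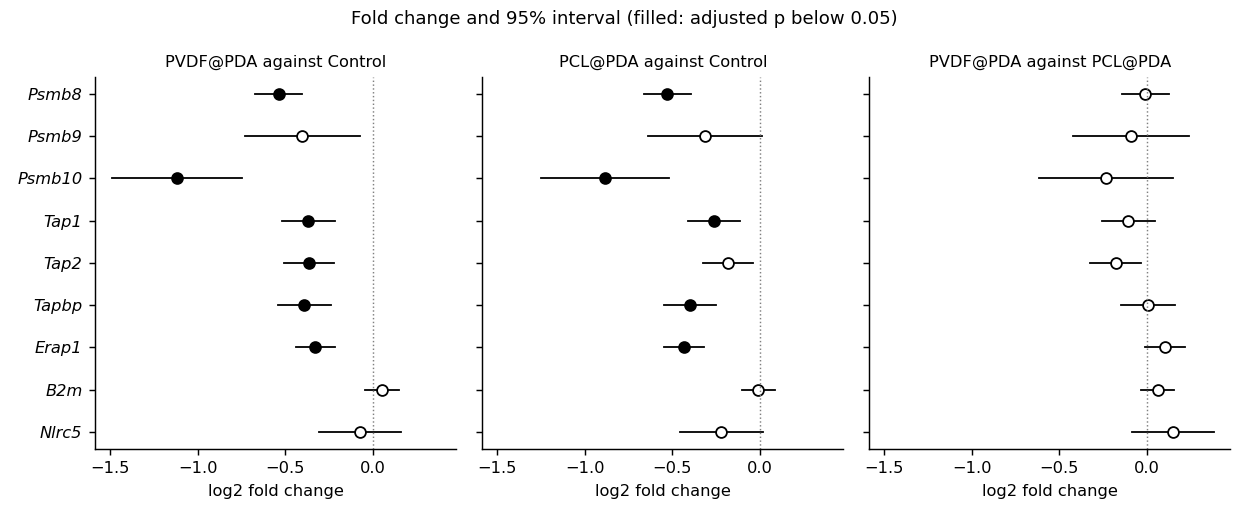
Log2 fold change of the 9 genes in 3 comparisons, with 95% intervals as lines and filled points for an adjusted p below 0.05 in edgeR's quasi-likelihood test. There are 6 filled points for PVDF@PDA against Control, 5 for PCL@PDA against Control and 0 for PVDF@PDA against PCL@PDA.

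Per gene length, B2m was by far the most abundant of the 9, at 825 ± 20.5 FPKM (SD, n = 2) in Control, and it ranked 53 to 61 among 16849 genes in the 6 libraries. Psmb8 followed at 107 ± 10.2 FPKM in Control. Tap2 (38.7 ± 1.18), Erap1 (36.5 ± 0.264), Tap1 (30.1 ± 0.91) and Tapbp (27.0 ± 0.575) formed a middle group in Control FPKM. Psmb9 (11.7 ± 1.87) and Psmb10 (11.02 ± 0.577) overlapped in Control. Nlrc5 was lowest at 1.93 ± 0.0141 FPKM. With PVDF@PDA the order of group means was the same, but Tap2 (30.9 ± 2.69 FPKM) and Erap1 (29.8 ± 0.486) overlapped, while Psmb9 (9.09 ± 0.762) and Psmb10 (5.20 ± 0.939) did not. With PCL@PDA it was Erap1 (27.9 ± 0.923) and Tap1 (25.9 ± 3.26) that overlapped.

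The piezoelectric and the non-piezoelectric material were then compared directly. None of the 9 genes passed edgeR's quasi-likelihood test (0 of 9, against 0.0615% of all genes tested, which is 8 genes, 1 lower and 7 higher, or 0.00768% and 0.0538%). DESeq2 also called 0 of the 9. At an unadjusted p under 0.05 there was 1 of 9, Tap2, against 8.49% of all genes. Tap2 was lower with PVDF@PDA by a log2 difference of -0.18 (95% interval -0.32 to -0.04, adjusted p = 0.469). Without PCL@PDA replicate 1 it was -0.27 and passed (adjusted p = 0.00752), in a fit that called 827 of all genes against 8 with every library. That fit leaves PCL@PDA replicate 3, the library that stands apart, as the 1 library of its group. The groups of Psmb8 overlapped, at -0.01 (95% interval -0.14 to 0.13), as did those of Tapbp, at 0.01 (-0.15 to 0.16). Psmb10 was at -0.24 with an interval from -0.62 to 0.15, so a lower level with PVDF@PDA of up to that size was not detectable with 2 libraries. Erap1 was at 0.10 (-0.01 to 0.22) and B2m at 0.06 (-0.03 to 0.16). Tap1 was at -0.11 (-0.26 to 0.04), Psmb9 at -0.09 (-0.42 to 0.24) and Nlrc5 at 0.15 (-0.09 to 0.38). The groups did not overlap in 4 of the 9 genes, an order that 18.9% of all genes tested showed with PVDF@PDA lower and 19.2% with PVDF@PDA higher.

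Replicate 1 of each group is listed as batch 1 and replicate 3 as batch 3, so batch and replicate number cannot be told apart. Each group has 1 library in each batch. Within batch 1 the 6 genes called with PVDF@PDA differed from Control by log2 values of -0.89 to -0.25, and within batch 3 by -1.37 to -0.32. The 5 genes called with PCL@PDA differed by -0.80 to -0.36 within batch 1 and by -0.97 to -0.18 within batch 3. Each of these genes was lower than Control in both batches. That order follows from the lack of overlap between their groups and is no separate evidence. The 6 genes called with PVDF@PDA were called again without any 1 of the 6 libraries.

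The partners that hold the class I molecule during loading are the chaperones Calr and Canx, the oxidoreductase Pdia3 and the tapasin relative Tapbpl. Of these 4, 0 passed with PVDF@PDA, and 1, Canx, fell with PCL@PDA (-0.17, adjusted p = 0.00662), a call lost without Control replicate 1 (0.181). Pdia3 was at -0.05 and -0.12 (adjusted p = 0.545 and 0.0778) and passed with PCL@PDA without PCL@PDA replicate 1 (0.00184), with the replicate block (0.0195) and in DESeq2 (0.036). Tapbpl was at -0.41 and -0.28 (adjusted p = 0.173 and 0.373). The list's median log2 fold change was -0.07 with PVDF@PDA and -0.15 with PCL@PDA. Of 5 other peptidases that trim class I peptides, 1 fell with PVDF@PDA and 3 with PCL@PDA, and 0 rose. The background for both lists is 8.9% of all genes tested called lower with PVDF@PDA and 11.3% with PCL@PDA. Tpp2, a large cytosolic peptidase, was at -0.16 (adjusted p = 0.0457) and -0.28 (adjusted p = 0.000329). Its PVDF@PDA call was lost without any 1 of the 4 libraries compared (adjusted p = 0.11 to 0.284). Nrdc, a zinc metallopeptidase, fell with PCL@PDA by 0.24 on the log2 scale (adjusted p = 0.000703), as did Lap3, a leucine aminopeptidase, by 0.16 (adjusted p = 0.0344), whose call was lost without any 1 of 5 libraries, PCL@PDA replicate 3 being the exception (adjusted p = 0.054 to 0.25). With PVDF@PDA Nrdc was at -0.15 (adjusted p = 0.0512). It passed without the filter on low counts (0.0387), with the replicate block (0.0131) and with only the 4 libraries compared (0.00457). Without PCL@PDA replicate 1 or replicate 3 Nrdc was at -0.15 as well.

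Class I heavy chains of the rat are encoded by a family of RT1 genes. Of the 30 found, 23 were tested, of which 2 fell and 1 rose with PVDF@PDA and 1 fell and 1 rose with PCL@PDA. These counts are near or below the shares of all genes tested that fell (8.9% and 11.3%) or rose (6.79% and 8.77%). Their median log2 fold change was -0.13 and -0.15. Summed over the family, the level was at 507 and 511 CPM with PVDF@PDA, at 492 and 585 in the PCL@PDA libraries and at 531 and 569 in Control. The PVDF@PDA libraries were below Control and the PCL@PDA libraries lay on either side of it. RT1-S3, a nonclassical class I gene, was at 2.46 and 2.72 CPM with PVDF@PDA, at 3.36 and 3.18 with PCL@PDA and at 5.22 and 5.85 in Control. It fell by 1.10 on the log2 scale with PVDF@PDA (adjusted p = 0.0011) and by 0.76 with PCL@PDA (adjusted p = 0.0204), and the latter call was lost without PCL@PDA replicate 3 (0.0975), Control replicate 1 (0.0588) or Control replicate 3 (0.149). RT1-T24-4 fell by 0.84 with PVDF@PDA (adjusted p = 0.00942), lost without PVDF@PDA replicate 1 (0.0723) or Control replicate 3 (0.346). With PCL@PDA it was at -0.52 (adjusted p = 0.106), and it passed without Control replicate 1 (0.0417). RT1-M5 was the gene that rose, with 24 and 12 counts for PVDF@PDA and 44 and 24 for PCL@PDA against 3 and 2 in Control (adjusted p = 0.0257 and 0.00138), too few counts for a useful fold. Its PVDF@PDA call was lost without PVDF@PDA replicate 1 (0.281), Control replicate 1 (0.103) or Control replicate 3 (0.175). Some heavy chain genes are close to each other in sequence and the handling of shared reads is not given, so values of single RT1 genes are uncertain.

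Genes that regulate class I expression were listed too. Of 20 listed regulators, all of them tested, 7 fell and 1 rose in each comparison with Control. Of all genes tested, 8.9% fell and 6.79% rose with PVDF@PDA, and 11.3% fell and 8.77% rose with PCL@PDA. The list's median log2 fold change was -0.20 with PVDF@PDA and -0.12 with PCL@PDA. With PCL@PDA the 7 became 4 without Control replicate 1, 4 with library totals alone and 4 in limma. Nfkb1, the precursor of an NF-kB subunit, was at 64.5 ± 1.30 CPM (SD, n = 2) with PVDF@PDA, at 68.1 ± 5.03 with PCL@PDA and at 108 ± 5.38 in Control. It fell by 0.74 on the log2 scale (adjusted p = 5.81e-12) and by 0.66 (adjusted p = 1.13e-10). Jak2, a kinase of the interferon gamma receptor, fell by 0.36 (adjusted p = 6.31e-06) and by 0.41 (adjusted p = 2.07e-07). Socs3, a feedback inhibitor of Jak kinases, was the gene that rose, by 0.31 (adjusted p = 8.48e-05) and 0.43 (adjusted p = 9.11e-08). Irf1, a transcription factor that binds interferon-stimulated response elements, was chosen after its values were seen. It was at 55.6 ± 0.485 CPM (SD, n = 2) with PVDF@PDA, at 56.6 ± 2.13 with PCL@PDA and at 71.3 ± 0.906 in Control (-0.36 and -0.33, adjusted p = 0.000285 and 0.000628).

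Of 17 tested interferon-induced genes outside the pathway, 7 fell and 1 rose with PVDF@PDA, and 7 fell and 2 rose with PCL@PDA. Not called were 9 and 8, and the list's medians were -0.25 and -0.23. The shares of all genes tested were 8.9% lower and 6.79% higher with PVDF@PDA, and 11.3% and 8.77% with PCL@PDA. Cxcl10, Bst2 and Ifit3 of this list, chosen after their values were seen, were higher in every material library than in both Control libraries. Of all genes tested, 29.3% were higher without overlap with PVDF@PDA and 28.3% with PCL@PDA. The share that was higher with both materials at once was not counted. Cxcl10 was at 45.21 and 46.39 CPM with PVDF@PDA, at 43.33 and 46.06 with PCL@PDA and at 33.02 and 32.45 in Control. Bst2 was at 60.51 and 64.29, at 60.98 and 72.01 and at 53.71 and 56.38 in that order. Ifit3 was at 8.08 and 8.82, at 8.79 and 8.52 and at 7.35 and 6.54 in the same order. The log2 fold change of Bst2 was 0.18 with PVDF@PDA, not called, and 0.27 with PCL@PDA, called. With only the 4 libraries compared in edgeR, the PVDF@PDA difference passed (adjusted p = 0.044). Leaving out PCL@PDA replicate 3 changed both calls, at log2 fold changes of 0.18 with PVDF@PDA and 0.14 with PCL@PDA. Leaving out PVDF@PDA replicate 3 reduced the 7 that fell in the first comparison to 3, and leaving out Control replicate 3 reduced the 7 in the second to 4. Gbp2, an interferon-induced GTPase, was at 263 ± 1.71 CPM (SD, n = 2) with PVDF@PDA, at 258 ± 13.6 with PCL@PDA and at 473 ± 5.94 in Control. It fell by 0.85 on the log2 scale (adjusted p = 2.29e-18) and by 0.87 (adjusted p = 3.72e-19). The related Gbp5 fell by 1.19 (adjusted p = 3.73e-07) and by 1.39 (adjusted p = 8.5e-09). Mx2, an antiviral GTPase, was at 1.97 and 1.96 CPM with PVDF@PDA, at 1.36 and 1.46 with PCL@PDA and at 8.19 and 6.34 in Control, a fall of 1.88 (adjusted p = 2.86e-07) and 2.36 (adjusted p = 1.69e-09) on the log2 scale. No gene of any of these lists passed between the materials in edgeR's quasi-likelihood test (0 of 85, with 5 at an unadjusted p under 0.05, and 0 in DESeq2), and 9 did without PCL@PDA replicate 1.

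**Figure D5:**
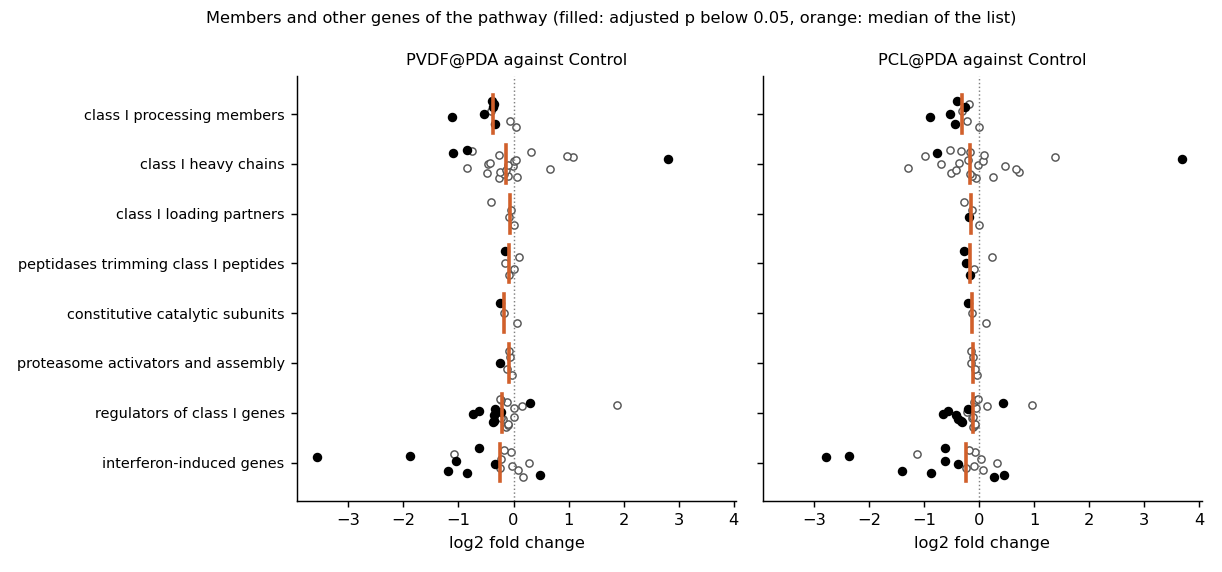
Log2 fold change against Control of the 9 genes and of 7 lists of related genes, with 1 point per tested gene, filled where the adjusted p was below 0.05, and an orange bar at each list's median. The median of the 9 genes lies at -0.37 for PVDF@PDA and -0.31 for PCL@PDA, and that of the heavy chains at -0.13 and -0.15.

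The 9 genes were also compared by their profile over the 6 libraries. Pearson's r of each gene with the mean profile of the other 8 was 0.990 for Psmb8, 0.924 for Erap1, 0.923 for Tapbp, 0.879 for Psmb9, 0.873 for Psmb10 and 0.851 for Tap1. It was 0.662 for Tap2, 0.619 for Nlrc5 and -0.320 for B2m. The other genes whose profiles were most like the mean of the 9 were Med14, Aig1 and Thbs2 (each 0.995), Tnfaip8l1 (0.994) and Tnfaip1 (0.993). Over 6 libraries in which Control stands apart, such values were common, and 704 of 10581 genes considered had an r above 0.9. These are descriptions over libraries that share group and batch.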

How the data were processed

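RNA-seq of 6 libraries was read from the count table deposited by the authors, whole-number counts with no normalisation, and from the FPKM values deposited by the authors, which they scaled to gene length and library total. Dividing counts by FPKM gave 1 length per gene for 15690 of 15690 genes (relative tolerance 1e-05). The submitters' processing notes list DESeq2 1.4.5 and mRatBN7.2 with no role. Aligner, read counter, annotation and strand: not given in the sources used here. Groups and replicate numbers 1 and 3 came from the titles.

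The model was edgeR 4.0.16 under R 4.3.3: TMM factors (0.9791 to 1.02), filterByExpr (3831 genes removed) and a robust quasi-likelihood fit of 3 group means to all 6 libraries, with 3 residual degrees of freedom. Tests were 2-sided, and p-values were adjusted by Benjamini-Hochberg over 13018 genes. Standard errors are the log2 fold change divided by the root of F. The biological coefficient of variation was 6.47%. The floor of 3 counts covers counting error only. Code was tested on simulated counts.

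Alternatives were RLE size factors, library totals alone, no filter, a replicate block, only the 4 libraries compared, a non-robust fit, DESeq2 1.42.0, limma 3.58.1 on log2(FPKM + 1) and log2(FPKM + 0.1), and leaving out each library. Separate cultures are not stated in the labels, so a p-value reflects the spread between libraries that may be technical replicates. No pair of libraries agreed within sampling noise. The 9 genes and the lists were chosen with earlier results of these data known. Named were the 9 genes and, per list, the 3 genes with the smallest p-values, and other names are marked as chosen after their values were seen. Likeness used log2 CPM (prior count 0.5) of tested genes whose mean was 1 or more. Some genes of the lists are not reported here by name.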

Additional observations from a re-analysis of the deposited data

How the results depend on the processing

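The 6 genes called lower with PVDF@PDA and the 5 called lower with PCL@PDA numbered 6 to 6 and 4 to 6 when any 1 library was left out, and between the materials 0 to 1, the 1 being Tap2 without PCL@PDA replicate 1. Without any 1 library, genes called over the related lists ranged from 14 to 28 with PVDF@PDA (23 with every library), from 17 to 28 with PCL@PDA (25) and from 0 to 9 between the materials (0). The 14 occurred without PVDF@PDA replicate 3 and without Control replicate 3, and the 9 without PCL@PDA replicate 1. In limma with a pseudocount of 1 they were 15 with each material, and with 0.1 they were 16. A fit with the replicate block (batch) called 6, 6 and 0 of the 9 genes, the added one being Tap2 with PCL@PDA, and over all genes 2591, 3051 and 59, against 2042, 2616 and 8. Deviations of same-numbered libraries correlated at r = -0.01, 0.05 and 0.13, so the numbers were not taken as pairs. Calls over all genes ranged from 1031 to 2869, 1346 to 3173 and 0 to 827 without 1 library, and were 859, 1304 and 0 in limma with a pseudocount of 1 and 986, 1413 and 0 with 0.1. Between the materials they were 17 without the filter, 12 with only the 4 libraries compared, 5 with library totals alone and 5 in DESeq2.

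Of the related genes named, the limma fit with a pseudocount of 1 lost Psme2, Tpp2, RT1-DMa, RT1-M5 and RT1-T24-4 with PVDF@PDA. With PCL@PDA that fit lost Canx, Psmb7, Lap3, Tpp2, Nrdc, RT1-DMa and Bst2. Signs changed in differences that had not passed. B2m with PCL@PDA was at 0.0334 with library totals alone, 0.0334 and 0.0335 in limma with a pseudocount of 1 and 0.1, and from -0.0379 to 0.0146 without 1 library. Between the materials, Tapbp was at -2e-04 with library totals alone, and without 1 library Tapbp ranged from -0.0631 to 0.0797, Psmb8 from -0.0458 to 0.0234 and Tap1 from -0.2187 to 0.0153. Nlrc5 with PVDF@PDA ranged from -0.1804 to 0.0247 without 1 library. The cause was not tested. With 2 libraries a group, small differences in the low genes Psmb9, Psmb10 and Nlrc5 could not be resolved.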

Other observations

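Class II molecules, which present peptides from outside the cell, were read from 8 tested genes of 9 listed. With each material 1 rose and 0 fell, against 6.79% and 8.77% of all genes tested that rose, so the count is near that background. RT1-DMa, a chaperone of class II peptide loading encoded near the genes of class I processing, was at 11.8 ± 3.15 CPM (SD, n = 2) with PVDF@PDA, at 12.8 ± 2.07 with PCL@PDA and at 8.61 ± 0.0831 in Control. It was higher by a log2 fold change of 0.46 (adjusted p = 0.0499, edgeR's quasi-likelihood test) and 0.57 (adjusted p = 0.00916), and the first call was lost without PVDF@PDA replicate 3 (adjusted p = 0.744), Control replicate 1 (0.154) or Control replicate 3 (0.136), the second without PCL@PDA replicate 3 (0.162). RT1-Bb and RT1-Da, chains of class II molecules, were below 2 CPM in every library and did not pass (adjusted p = 0.459 and 0.328 with PVDF@PDA, 0.243 and 0.515 with PCL@PDA). The list's median log2 fold change was 0.36 with PVDF@PDA and 0.21 with PCL@PDA, with 7 of the 8 genes not passing in either comparison.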
